A study of Mus musculus with 49 samples.

Results

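The genes described here encode the proteins that copy DNA. The list was drawn up by function, with earlier results of these data known, so its counts are descriptions. It holds 37 genes in 9 roles, from the loading of the replicative helicase to the repackaging of the new DNA. Of these, 36 had a probe set with a single gene symbol, Chaf1a being the exception, and 24 had values on all 49 arrays. The whole table covered 18194 genes on the complete arrays and 5976 genes on all arrays.

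The samples were livers of male C57BL6/N mice, given 300 mg/kg acetaminophen (APAP, paracetamol) once by intraperitoneal injection in phosphate-buffered saline. APAP in overdose kills the hepatocytes around the central veins, and the liver then regrows. Livers were taken at 1 h, 6 h and 12 h, on 1 d, 2 d and 4 d, and on 6 d, 8 d and 16 d, beside a control group labelled as having no treatment; the 6 h group had 4 arrays and all others 5. Treated mice had no food during the night preceding APAP and ate at will from then on. Neither the labels nor the design text say whether control mice were starved or injected, and only the sample labels mention the 16 d group. The labels do not state that the arrays of a group were separate mice, so p-values measure the spread between these arrays, which may be technical.

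Before a cell enters S phase, ORC, Cdc6 and Cdt1 load the ring-shaped MCM helicase onto replication origins. Cdc45 and the GINS proteins then switch the helicase on, primase and the polymerases make the new strands, the sliding clamp PCNA holds the polymerases on the DNA, and Fen1 and ligase 1 join the Okazaki fragments. Hepatocytes of an adult liver rarely divide, and most genes of this machinery are transcribed under the E2F factors once a cell leaves quiescence.

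Values are log2 expression after robust multi-array averaging, and a difference is one between group means on that scale, given with its standard error (SE) from the limma fit. A gene was called higher or lower where its p, after Benjamini-Hochberg adjustment across every gene in the comparison, was under 0.05. The 24 genes measured on all arrays were compared with control, and 36 genes on the arrays with complete values (the groups of 1 h and 12 h, of 1 d and 2 d, and of 16 d) were compared with 1 h, which is no untreated control. These comparisons share their reference arrays, and so their values are given side by side only. The mean level of the arrays lay between 6.03 and 6.33, and the spread of values within an array between an SD of 2.25 and 2.48. Hepatocyte transcripts were near the top of the scale, with Alb, which encodes albumin, at 14.2 in the 1 h group and 14.3 at 2 d. In whole liver, fewer cells of a type and less RNA per cell cannot be told apart.

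One array of 2 d stood apart for these genes. On 2 d replicate 2 the mean difference of the 24 genes from control was 0.99, against 2.61, 2.10, 2.59 and 2.21 on the other 2 d arrays. It was the lowest of the 2 d arrays for 23 of the 24 genes and for 33 of the 36, whereas it was the lowest for 27.9% and 27.1% of all genes in those tables. Its mean over 26 mitosis genes was also lowest, at 0.56 above the 1 h group against 1.69 to 2.35 on the other arrays. Markers of other cells were not low on it: 9 Kupffer cell markers stood 1.00 above 1 h against 0.65 to 0.86, 6 neutrophil markers 1.07 against 0.30 to 0.68, and 11 macrophage and monocyte markers 1.76 against 1.20 to 2.05. Results at 2 d are given with this array. The counts of the 24 and of the 36 genes called higher against control and against 1 h are also given without it. Counts of groups that did not overlap and of the further lists are given with it only.

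**Figure D1:**
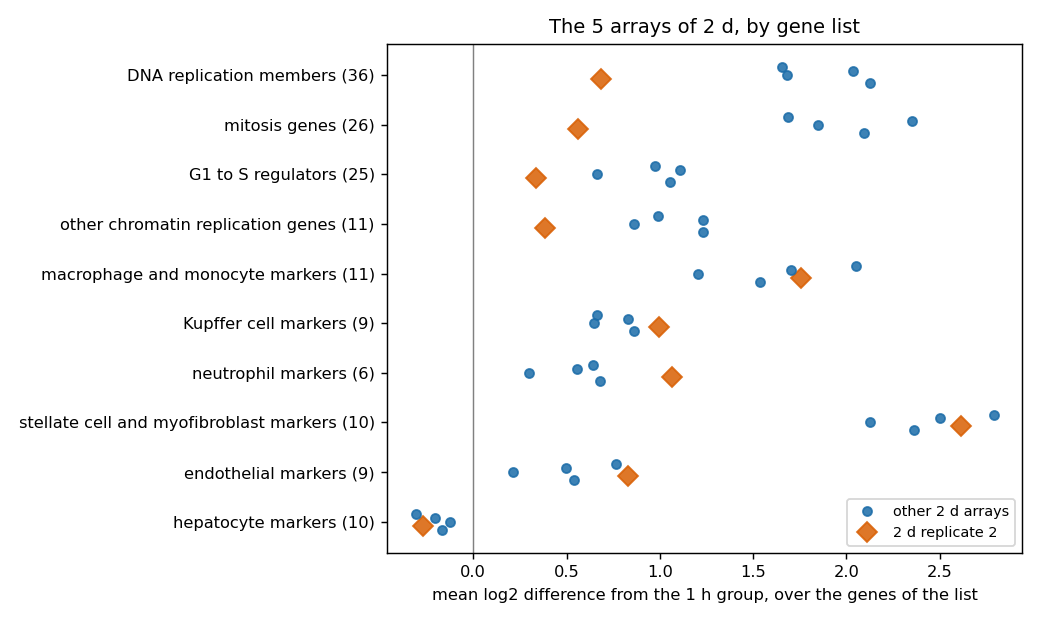
The 5 arrays of 2 d, each as its mean log2 difference from the 1 h group (x axis) over the genes of a list (y axis, number of genes in brackets). The orange diamond, 2 d replicate 2, lies below the other arrays for replication, mitosis, G1 to S and chromatin replication genes (0.68 against 1.66 to 2.13 for replication genes) and within or above them for the markers of other cell types.

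Promoter sequences were scanned first, since these genes are known as E2F targets. RefSeq promoters on GRCm38.p6, 250 bases before to 50 bases after the annotated start, were at hand for 32 of the 37 genes, giving 37 promoters. The words searched on both strands were TTTGGCGC, TTTCGCGC, TTTCCCGC and TTTGCCGC for E2F, which can overlap each other. Further words were CCAAT for NF-Y, then GGGCGG for SP1, and lastly TTTGAA for the CHR element. An E2F word lay in the 250 upstream bases of 8 of the 37 promoters (21.6%) and of 1.86% of all 32851 promoters. Over the whole 300 bases it was in 13 of 37 (35.1%) against 2.26%. CCAAT was in 59.5% of the 37 against 33.8% of all, GGGCGG in 62.2% against 32.7%, and TTTGAA, a word associated with late cell cycle genes, in 8.11% against 16%, all in the upstream part. The shorter core GGCGC, which is contained in TTTGGCGC alone of the 4 words, was in 73% against 32%. These are matches of letters and not known binding sites.

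The stretches around the upstream E2F words are printed 5′ to 3′ on the gene's strand, with the words in capitals, because this word was found in few of all promoters. Pclaf, whose transcript was among those with the largest rises at 2 d, had none of the 4 words in the 250 upstream bases and is printed for comparison. The pieces run from chr11:98907993-98908040 (plus strand, Cdc6), chr8:75109336-75109387 (plus, Mcm5), chr1:128359725-128359835 (minus, Mcm6), chr5:138172021-138172068 (minus, Mcm7), chr4:108579407-108579453 (plus, Orc1), chrX:93632266-93632313 (minus, Pola1), chr5:151651209-151651238 (minus, Rfc3), chr17:56304108-56304155 (plus, Uhrf1) and chr9:65890203-65890322 (plus, Pclaf). All lie upstream of the annotated starts. In Mcm5 and Mcm6 an E2F word and the reverse complement of another overlap, so that each such run of capitals holds 2 words.
Cdc6: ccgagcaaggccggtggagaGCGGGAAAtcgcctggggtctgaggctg
Mcm5: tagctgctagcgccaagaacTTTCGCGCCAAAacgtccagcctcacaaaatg
Mcm6: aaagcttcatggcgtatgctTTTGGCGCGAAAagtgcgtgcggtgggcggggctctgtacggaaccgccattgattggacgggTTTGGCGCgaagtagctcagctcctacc
Mcm7: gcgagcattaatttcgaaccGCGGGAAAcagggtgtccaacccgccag
Orc1: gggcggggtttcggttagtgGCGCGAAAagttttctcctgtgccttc
Pola1: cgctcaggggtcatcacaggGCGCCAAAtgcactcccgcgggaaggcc
Rfc3: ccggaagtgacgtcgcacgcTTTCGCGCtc
Uhrf1: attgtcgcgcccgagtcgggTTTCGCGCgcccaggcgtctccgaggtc
Pclaf: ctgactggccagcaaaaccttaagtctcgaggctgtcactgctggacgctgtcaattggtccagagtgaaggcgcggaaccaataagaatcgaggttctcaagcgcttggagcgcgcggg

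At 2 d all 24 genes were higher than in control liver, against a background of 19.9% of all genes called higher. None had been called at 1 h (background 0.335%; limma, 1 gene at an unadjusted p under 0.05, and 1 called gene with array weights). At 6 h only Pcna was called (background 3.78%), by 0.56 ± 0.15. By 12 h 7 genes were higher (background 11.5%) and Tk1 alone was lower (background 12.2%), and after 1 d 8 were higher (background 16.2%). The median difference of the 24 was 0.12 at 12 h, 0.50 at 1 d, 1.97 at 2 d and 0.90 at 4 d, while the median of all 5976 genes stayed between -0.05 and 0.01. All 24 had their highest group mean at 2 d.

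At 2 d, 21 of the 24 genes had at least a 2-fold higher mean, and in 18 every 2 d array lay above every control array (background 13.4%). Without 2 d replicate 2 the median difference was 2.34 and 24 genes were still called. From 1 d to 2 d 22 of 24 rose (background 10.5%), 12 of them with every array of 2 d above every array of 1 d (background 6.16%); the exceptions were Rfc1 and Rfc3. At 4 d 19 of 24 remained higher than control (background 9.99%), all 19 with no overlap (background 8.22%), and 20 were lower than at 2 d (background 13.5%). Between 4 d and 6 d 8 genes fell (background 1.56%): Mcm3, Mcm4, Mcm5, Mcm6, Pcna, Lig1, Rrm1 and Uhrf1. Later on, Mcm6 and Rpa1 were called at 6 d (background 5.89%) and Mcm6 alone at 8 d (background 5.19%) and 16 d (background 3.31%).

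The early and late counts rest on few arrays. Without control replicate 3 the count of higher genes at 12 h was 4, that of lower genes 2, and the counts at 6 h, 6 d and 16 d were 0. The 6 h count was also 0 without 6 h replicate 2 or replicate 5, and the lower count at 12 h was 2 without 12 h replicate 4. At 6 d the count was 0 without 6 d replicate 4 and 1 without 6 d replicate 1 or control replicate 2. At 8 d it was 0 without 8 d replicate 3 and 2 without 8 d replicate 2, control replicate 1 or control replicate 5. The 16 d count was 0 without 16 d replicate 1, 3 or 5 or control replicate 1 or 4, and 2 without 16 d replicate 4.

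**Figure D2:**
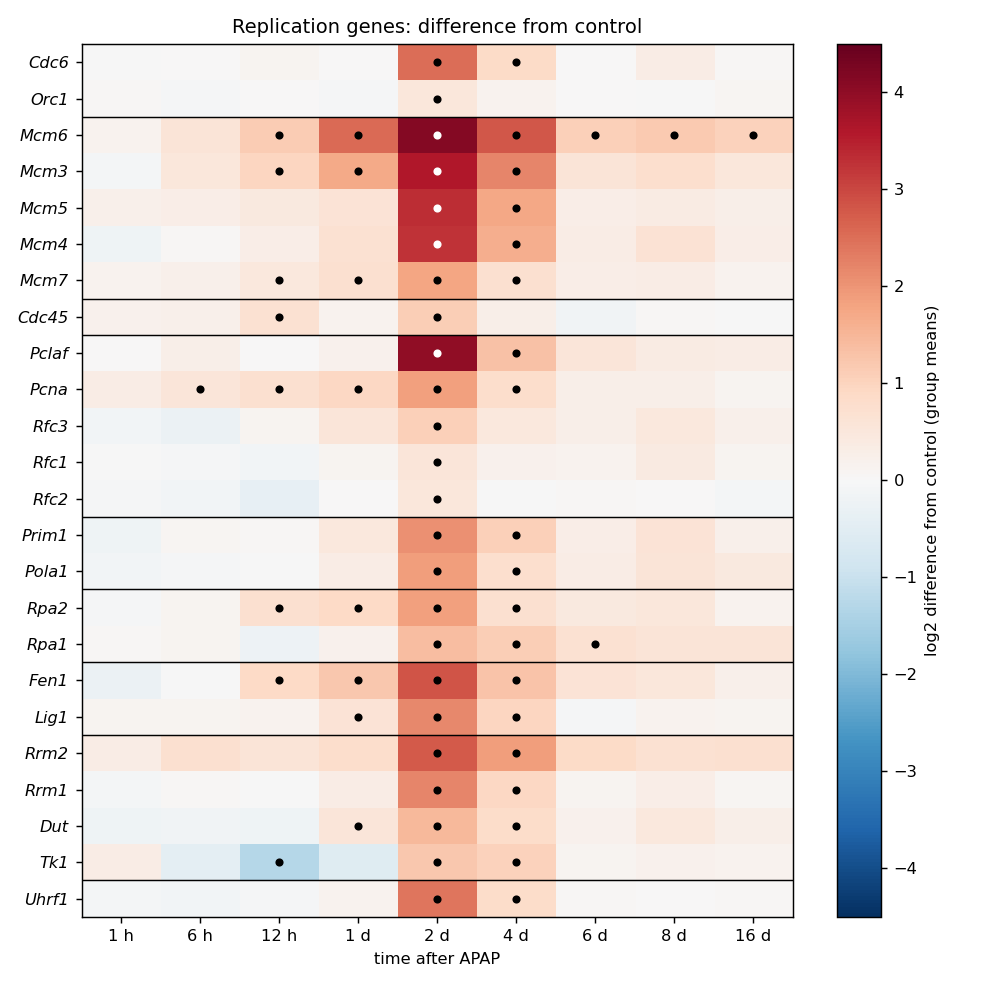
Log2 difference from control of the 24 genes (rows, grouped by role between black lines) at the 9 times after APAP (columns). Dots mark differences called at an adjusted p under 0.05; every gene has a dot at 2 d, where differences run from 0.51 to 4.15, and Tk1 has the only called fall, at 12 h.

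Centring each array on another set of genes moves all genes alike, so that small differences lose their call first. With each array centred on the ribosomal protein genes, the median of all genes at 2 d moved from -0.03 to -0.33 against control and from -0.08 to -0.74 against 1 h. The share of higher calls among all called genes then went from 61% to 18.6% against control, and from 52.7% to 4.93% against 1 h. Quantile normalization gave 40.9% against control. Under ribosomal centring 21 of the 24 genes were called higher at 2 d against control, and 21 of 36 higher and 4 lower against 1 h. Orc1, Rfc1 and Rfc2 were not called against control, with differences of 0.20 (adjusted p = 0.195), 0.25 (adjusted p = 0.132) and 0.20 (adjusted p = 0.125) in limma's fit.

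The origin licensing genes ended far apart in size. Cdc6 (probe set 1417019_a_at), the ATPase that brings the helicase to ORC, read 2.55, 2.72, 2.81, 2.75 and 2.82 on the control arrays and 6.29, 3.30, 5.07, 5.96 and 5.63 at 2 d. Every 2 d array was higher, replicate 2 by the smallest margin, and the difference was 2.52 ± 0.25 (adjusted p = 8.22e-11). At 1 d the difference was 0.01, or 0.405% of that at 2 d. The control level of Cdc6 lay among the lowest 10% of values, under 3.38, where differences can be understated.

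Orc1 (1422663_at), the largest ORC subunit, read 2.98, 2.94, 3.58, 3.19 and 3.34 in control and 3.84, 3.33, 3.61, 3.87 and 3.91 at 2 d. The groups overlapped at 2 d replicate 2, and the rise was 0.51 ± 0.11 (adjusted p = 0.000413). Another probe set (1443172_at) had the higher mean on the complete arrays and stood for Orc1 there, with 6.77, 6.57, 7.24, 6.59 and 6.30 at 1 h and 6.31, 6.49, 6.62, 6.25 and 6.16 at 2 d. That probe set was not called (-0.33 ± 0.16), so the probe sets of Orc1 disagree.

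Cdt1 (1424143_a_at), which delivers the MCM ring with Cdc6, was measured on the complete arrays only. It read 6.23, 6.73, 6.28, 6.28 and 6.40 at 1 h, 7.45, 7.21, 7.45, 7.20 and 7.22 at 12 h, and 9.19, 7.56, 8.53, 8.76 and 8.58 at 2 d. All arrays of the later groups lay above those of 1 h. The rise over 1 h was 0.92 ± 0.18 at 12 h, 1.15 ± 0.18 at 1 d and 2.14 ± 0.18 at 2 d, so Cdt1 was called at 12 h and 1 d, when the differences of Cdc6 from control were 0.13 and 0.01.

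Of the other licensing and firing genes, 4 of 9 were higher at 2 d than in control; this count and those of the further lists stand beside 19.9% of all genes called higher against control and 14.8% against 1 h. The largest were Dbf4, the activating subunit of the CDC7 kinase, by 2.33 ± 0.32, Gmnn, the Cdt1 inhibitor geminin, by 1.37 ± 0.33, and Orc6 by 1.03 ± 0.18. Dbf4 was already higher at 12 h (0.93 ± 0.32) and 1 d (1.59 ± 0.32). Among 19 on the complete arrays 8 rose over 1 h, led by Topbp1, an activator of origin firing, at 2.16 ± 0.29.

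The MCM ring, the motor that unwinds the DNA, held 4 of the 5 largest differences at 2 d. Mcm6 (1416251_at) read 4.92, 5.49, 4.77, 5.07 and 5.66 on the control arrays, 7.41, 7.66, 7.76, 8.45 and 7.36 at 1 d and 9.78, 8.02, 9.50, 9.84 and 9.50 at 2 d. No array of 1 d or 2 d overlapped control, and 2 d replicate 2 lay within the range of 1 d. The difference was 1.14 ± 0.30 at 12 h, 2.54 ± 0.30 at 1 d and 4.15 ± 0.30 at 2 d, a 17.7-fold higher mean, which ranked 9 of the 5976 genes. At 4 d it was 2.78 ± 0.30 and at 16 d 1.04 ± 0.30 (adjusted p = 0.0234), with the 16 d arrays at 6.39, 5.99, 6.74, 5.67 and 6.32. The 16 d value was lost without any one of 16 d replicates 1, 3 and 5 and control replicates 1, 3 and 4.

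The other MCM genes of the ring followed at 2 d with 3.61 ± 0.28 for Mcm3, 3.33 ± 0.28 for Mcm5, 3.23 ± 0.30 for Mcm4 and 1.78 ± 0.16 for Mcm7. Mcm3 and Mcm7 were first called at 12 h (0.95 ± 0.28 and 0.48 ± 0.16) and were not called at 6 d, 8 d or 16 d. On the complete arrays other probe sets stood for them (1426653_at and 1438320_s_at). Neither was called over 1 h at 12 h or 1 d. Mcm4 and Mcm5 (1415945_at) were not called against control at 12 h or 1 d. Another Mcm5 probe set (1436808_x_at), which has no control values, was called over 1 h at both times. Mcm7 (1416031_s_at) had the smallest difference of the ring, reading 6.77, 6.56, 6.32, 6.60 and 6.50 in control and 8.71, 7.38, 8.45, 8.71 and 8.39 at 2 d. The groups were apart, with 2 d replicate 2 more than 1 unit below the other 2 d arrays. The Mcm3 values came from a probe set marked as possibly matching other transcripts; an unmarked probe set (1420029_at) rose by 0.41 ± 0.12, and on the complete arrays the other 3 rose by 1.98 to 2.70 over 1 h.

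Mcm5 (1436808_x_at) had the largest difference from 1 h of the 36 genes, 4.77 ± 0.44, with 4.52, 5.34, 4.11, 4.73 and 5.24 at 1 h and 10.19, 7.97, 9.54, 10.33 and 9.77 at 2 d. Mcm2 (1434079_s_at) had the smallest of the ring, 1.94 ± 0.24, with 5.93, 5.88, 6.03, 5.77 and 5.93 at 1 h and 8.44, 6.96, 7.97, 8.24 and 7.65 at 2 d. In both genes all 2 d arrays were above all 1 h arrays. Both probe sets are marked as possibly matching other transcripts. The unmarked Mcm5 probe set (1415945_at), used against control, rose by 3.12 ± 0.32 over 1 h. This was less than Pclaf, Mcm6 and Mcm4, so the rank of Mcm5 rests on the marked one. The unmarked Mcm2 probe set (1448777_at) had group means of 4.44 at 1 h and 7.70 at 2 d. Those of the marked one were 5.91 and 7.85, a smaller rise. The place of Mcm2 as the smallest of the ring thus also rests on its marked probe set.

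**Figure D3:**
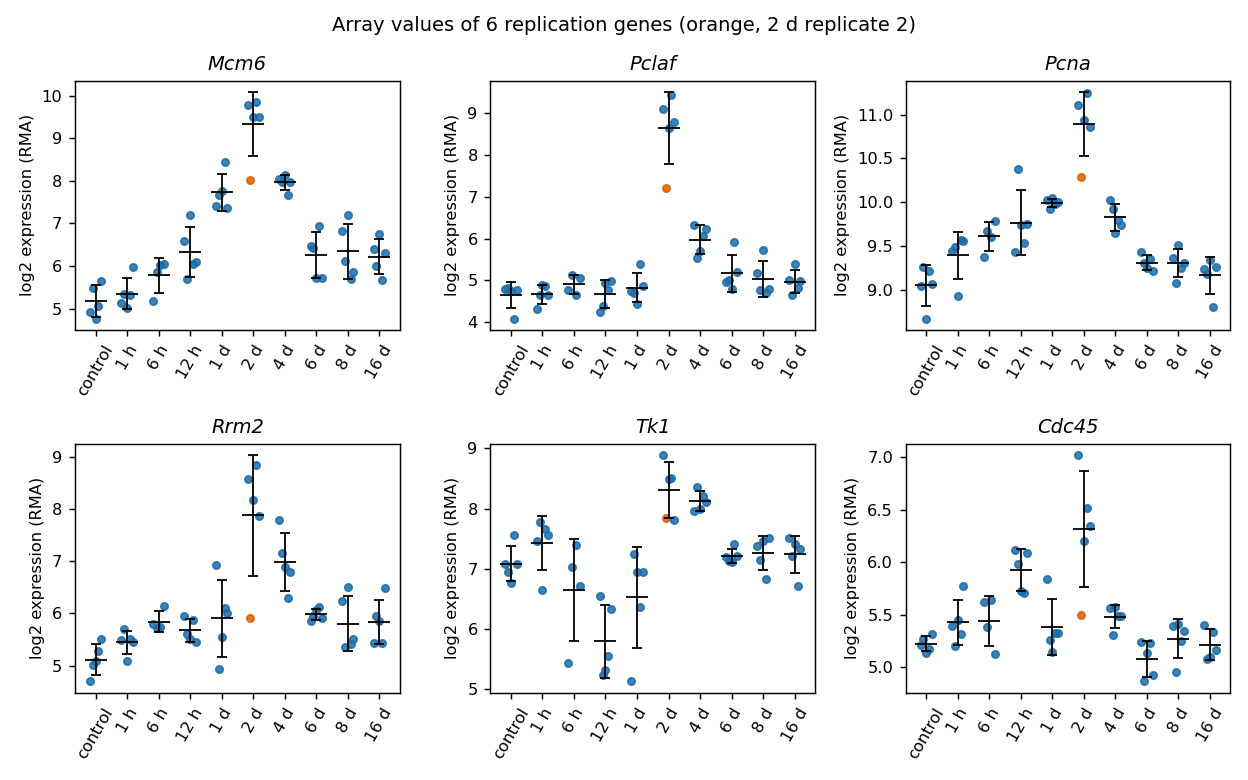
Log2 expression on every array (points) for Mcm6, Pclaf, Pcna, Rrm2, Tk1 and Cdc45 in the 10 groups, with group means and SD (bars); y axes do not start at 0. Orange marks 2 d replicate 2, which is the lowest 2 d array for all but Tk1. Pcna is first called at 6 h and Mcm6 at 12 h, Pclaf is near control until 1 d and Tk1 is below control at 12 h. Cdc45 (1416575_at) is up at 12 h, back near control at 1 d and up again at 2 d. Its other probe set (1457838_at), which is not drawn, did not show this course.

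Cdc45 and GINS, which complete the active helicase, rose less. The course given for Cdc45 holds for 1 probe set (1416575_at) alone. Another (1457838_at) was measured on the complete arrays only. Its mean was 5.69 at 1 h, 5.58 at 12 h, 5.54 at 1 d and 5.51 at 2 d. Cdc45 (1416575_at) read 5.22, 5.27, 5.14, 5.18 and 5.32 in control, 6.12, 5.99, 5.73, 5.71 and 6.09 at 12 h, 5.84, 5.27, 5.15, 5.33 and 5.33 at 1 d and 7.02, 5.49, 6.20, 6.52 and 6.35 at 2 d. All arrays of 12 h and 2 d were above control, and those of 1 d overlapped it. The differences from control were 0.70 ± 0.16 at 12 h (adjusted p = 0.00068), 0.16 at 1 d and 1.09 ± 0.16 at 2 d (adjusted p = 2.63e-07), and the fall from 12 h to 1 d of -0.55 ± 0.16 was itself called (adjusted p = 0.0285). No other of the 24 genes was called lower at 1 d than at 12 h; 2 genes, Mcm6 and Dut, were called higher (background 3.23%), and 1 gene without 1 d replicate 3, 1 d replicate 4 or 12 h replicate 3. Over 1 h, Gins2 (1428713_s_at) rose by 1.38 ± 0.19, from 5.07, 5.08, 5.08, 5.20 and 5.14 to 6.90, 5.44, 6.46, 7.0 and 6.65, and Gins1 by 1.09 ± 0.25.

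For Mcm10, a scaffold between the helicase and polymerase alpha, the brightest probe set (1433408_a_at) was lower than at 1 h where most other genes of the list were higher. This probe set is marked as matching further transcripts and was far brighter than the other probe sets of Mcm10; whether it measures Mcm10 was not checked, so its values hold for the probe set alone. It read 9.37, 9.70, 8.85, 9.43 and 9.54 at 1 h, 8.42, 6.69, 6.23, 7.68 and 8.19 at 12 h, and 5.57, 7.30, 7.47, 7.13 and 7.56 at 1 d. At 2 d it read 9.20, 7.44, 8.88, 8.20 and 7.90, and at 16 d 10.21, 10.16, 9.97, 9.62 and 10.35. The 12 h and 1 d arrays were all below 1 h, and those of 2 d overlapped it. The difference from 1 h was -1.93 ± 0.39 at 12 h, -2.37 ± 0.39 at 1 d and -1.05 ± 0.39 at 2 d (adjusted p = 0.0473), the last lost without 2 d replicate 2 (-0.83, adjusted p = 0.126) and without any one of 1 h replicates 1, 2, 4 and 5 and 2 d replicates 4 and 5. From 1 d to 2 d it rose by 1.32 ± 0.39. A dimmer probe set (1433407_at) was lower than 1 h by -0.66 ± 0.22 at 1 d and the third (1454244_at), with group means of 3.05 to 3.21, was not called, so no probe set of Mcm10 was called higher at 2 d than at 1 h. No control values were used for Mcm10.

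The sliding clamp was the first to be called. Pcna (1417947_at) read 9.04, 9.25, 8.67, 9.22 and 9.07 in control, 10.02, 9.92, 10.04, 9.97 and 10.00 at 1 d and 11.10, 10.29, 10.94, 11.24 and 10.86 at 2 d. The groups of 1 d and 2 d did not overlap control or each other. Its difference was 0.56 ± 0.15 at 6 h, 0.72 ± 0.14 at 12 h, 0.94 ± 0.14 at 1 d and 1.84 ± 0.14 at 2 d (adjusted p = 9.84e-14), so that 51.3% of the 2 d difference was present at 1 d.

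Pclaf (1419153_at), a small protein that binds PCNA at the fork, was first called at 2 d. Control arrays read 4.78, 4.83, 4.74, 4.08 and 4.78, those of 1 d 4.75, 4.69, 4.43, 5.38 and 4.86, and those of 2 d 9.11, 7.20, 8.65, 9.45 and 8.79. Arrays of 1 d overlapped control and those of 2 d lay far above it. The difference at 2 d was 4.00 ± 0.26, a 16-fold higher mean, of which 4.52% was present at 1 d and 33.3% at 4 d.

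Among the clamp loader genes, whose products open the PCNA ring, Rfc1 and Rfc2 had small differences and Rfc4 a larger one. Rfc2 (1417503_at) read 7.08, 7.15, 6.60, 7.03 and 7.23 in control and 7.70, 7.07, 7.47, 7.77 and 7.63 at 2 d; the groups overlapped at 2 d replicate 2, and the difference was 0.51 ± 0.14. On the complete arrays it rose by 0.55 ± 0.15 over 1 h, where the arrays read 6.80, 7.24, 6.80, 6.99 and 7.07; this turned to -0.12 under ribosomal centring, as Rfc1 turned from 0.56 ± 0.17 to -0.10. Rfc1 rose by 0.55 ± 0.16 over control, a call lost without control replicate 3 (0.38, adjusted p = 0.058), and Rfc3 by 1.06 ± 0.22. Rfc4 and Rfc5 rose by 2.30 ± 0.41 and 1.16 ± 0.25 over 1 h.

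The primase and polymerase genes measured against control were called at 2 d and not before. Prim1 (1418369_at), the catalytic primase subunit, read 6.06, 5.79, 4.51, 5.34 and 5.19 in control and 8.03, 5.77, 7.75, 8.21 and 7.34 at 2 d. Only 2 d replicate 2 fell within the control range, and the difference was 2.04 ± 0.32. Pola1 (1419397_at), the catalytic subunit of the priming polymerase alpha, read 4.89, 5.22, 4.85, 4.92 and 4.87 in control and 7.19, 5.30, 6.81, 7.61 and 7.30 at 2 d, a difference of 1.89 ± 0.25 with no overlap. Neither was called at 12 h or 1 d.

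On the complete arrays the polymerase genes ranged from Prim1, with 4.77, 5.48, 4.35, 5.57 and 5.80 at 1 h and a rise of 2.22 ± 0.37, to Pold1 (1456055_x_at), which encodes the catalytic subunit of the lagging strand polymerase delta. Pold1 read 6.13, 5.49, 6.29, 5.48 and 5.27 at 1 h and 6.62, 6.43, 6.89, 6.29 and 6.04 at 2 d, a difference of 0.72 ± 0.25 (adjusted p = 0.0355) between overlapping groups that was not called without 2 d replicate 2 (0.73, adjusted p = 0.0523). That probe set is marked as possibly matching other transcripts. An unmarked one (1448187_at) read 5.08, 5.05, 5.15, 4.88 and 5.11 at 1 h. At 2 d it read 5.92, 5.36, 5.30, 6.30 and 6.13, with no overlap. The overlap given for Pold1 thus holds for the marked probe set alone. Pole, for the leading strand polymerase epsilon, rose by 1.10 ± 0.23 and Pola2 by 0.83 ± 0.17.

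Among other fork enzymes, 4 of 7 were higher than control at 2 d: Prim2, the large primase subunit, by 1.67 ± 0.19, Timeless, of the fork protection complex, by 1.48 ± 0.20, and Exo1, an exonuclease, by 0.71 ± 0.15 were the largest. Of 22 on the complete arrays 15 rose over 1 h. Top2a, the topoisomerase that untangles replicated chromosomes, led with 2.99 ± 0.27, followed by Timeless with 1.66 ± 0.23 and its partner Tipin with 1.49 ± 0.27.

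Rpa1 and Rpa2, which encode subunits of the single-strand binding protein RPA, were both higher at 2 d. Rpa2 (1416433_at) read 5.46, 5.37, 4.86, 5.52 and 5.25 in control and 7.72, 6.03, 7.15, 7.53 and 7.19 at 2 d, all above control. It was higher by 0.72 ± 0.24 at 12 h, 0.91 ± 0.24 at 1 d and 1.83 ± 0.24 at 2 d. Rpa1 (1423293_at), the DNA-binding subunit, read 8.05, 7.48, 7.10, 7.93 and 8.07 in control, 9.42, 8.52, 9.03, 9.59 and 9.05 at 2 d and 9.15, 8.71, 8.66, 8.89 and 8.70 at 4 d. It was not called before 2 d (1.40 ± 0.21), and 78.6% of that difference remained at 4 d against 40% for Rpa2. Whether the subunits differ in these shares was not tested. The 12 h call of Rpa2 was lost without control replicate 3 (0.61, adjusted p = 0.068) and without 12 h replicate 1 or replicate 5.

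On the complete arrays Rpa2 rose by 1.88 ± 0.26, from 5.35, 5.62, 4.64, 5.35 and 5.23 at 1 h, and a second probe set of Rpa1 (1437309_a_at) by 1.37 ± 0.19, from 8.33, 8.57, 7.71, 8.25 and 8.31 to 9.83, 8.94, 9.67, 9.99 and 9.61.

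Okazaki fragment genes rose together at 2 d. Fen1 (1421731_a_at), the flap endonuclease, read 4.67, 4.92, 4.11, 5.01 and 4.84 in control and 8.02, 6.22, 7.56, 8.16 and 7.71 at 2 d, with no overlap. It was 0.90 ± 0.29 higher at 12 h, 1.23 ± 0.29 at 1 d and 2.82 ± 0.29 at 2 d. Lig1 (1416641_at), the ligase that seals the fragments, read 5.79, 5.82, 6.16, 5.73 and 5.93 in control and 8.42, 7.15, 7.92, 8.53 and 8.23 at 2 d, again with no overlap, and rose by 0.62 ± 0.19 at 1 d and 2.16 ± 0.19 at 2 d.

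A second Fen1 probe set (1436454_x_at), which had the higher mean on the complete arrays, stayed level. It read 9.13, 8.67, 9.82, 9.11 and 9.01 at 1 h and 9.04, 8.97, 9.30, 9.31 and 9.15 at 2 d, a difference of 0.01 ± 0.22, while the first rose by 3.08 ± 0.31 over the same arrays. Lig1 rose by 2.05 ± 0.19 over 1 h, where its arrays read 5.65, 6.23, 6.18, 6.00 and 5.94.

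Nucleotide supply genes included the one fall against control. Rrm2 (1416120_at), the regulated subunit of ribonucleotide reductase, read 4.70, 5.01, 5.08, 5.29 and 5.50 in control and 8.57, 5.92, 8.18, 8.84 and 7.87 at 2 d, with no overlap and a difference of 2.76 ± 0.33. Its partner Rrm1 rose by 2.18 ± 0.16. Neither was called before 2 d.

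Tk1 (1416258_at), the salvage enzyme thymidine kinase, read 7.08, 6.95, 6.77, 7.56 and 7.08 in control, 6.55, 5.24, 5.32, 5.55 and 6.33 at 12 h, 8.89, 7.85, 8.49, 8.51 and 7.81 at 2 d and 7.96, 8.36, 7.99, 8.21 and 8.10 at 4 d. The 12 h arrays were all below control, and those of 2 d and 4 d all above it. The difference was -1.29 ± 0.30 at 12 h (adjusted p = 0.00103), -0.56 at 1 d, which was not called, 1.22 ± 0.30 at 2 d and 1.04 ± 0.30 at 4 d, so 84.8% of the 2 d difference was left at 4 d. Against 1 h it was lower by -1.63 ± 0.33 at 12 h.

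Dut, the dUTPase that keeps uracil out of DNA, had probe sets that disagreed. One (1419270_a_at) read 6.60, 7.07, 5.99, 6.71 and 6.51 in control and 8.42, 7.0, 8.00, 8.50 and 8.30 at 2 d, overlapping only at 2 d replicate 2, and rose by 1.47 ± 0.21. The other (1419269_at) differed by -0.35 ± 0.18 at 2 d and was not called. It was lower still before that, with a mean of 4.93 in control, 4.47 at 12 h and 4.29 at 1 d. Rises given for Dut hold for the first probe set alone.

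Tyms, thymidylate synthase, was at background. Its 4 probe sets had group means between 2.70 and 3.46, near or under the lowest 10% of values on the complete arrays (3.31). The one with the highest mean (1427810_at) read 3.45, 3.35, 3.25, 3.45 and 3.81 at 1 h and 3.14, 2.85, 2.92, 3.18 and 3.02 at 2 d. It was called lower by -0.44 ± 0.12 (adjusted p = 0.00792), and none of the other 3 was called; averaged over the 4 the difference was -0.05.

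The complete-array probe set of Rrm2 (1434437_x_at) rose by 2.93 ± 0.52, from 5.18, 6.26, 4.95, 5.96 and 6.34 at 1 h to 9.32, 6.66, 8.95, 9.73 and 8.65 at 2 d. Of the other nucleotide supply genes, 3 of 6 rose over control at 2 d: Ctps, for CTP synthase, by 1.21 ± 0.18 after 1.59 ± 0.18 at 12 h, the dNTP hydrolase Samhd1 by 0.93 ± 0.20 and the purine enzyme Gart by 0.44 ± 0.16. Over 1 h 9 of 18 rose, led by Dck, deoxycytidine kinase, with 2.96 ± 0.40, Dtymk, thymidylate kinase, with 1.45 ± 0.30 and Ctps with 1.40 ± 0.17.

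For chromatin replication, Uhrf1 (1415811_at), which reads hemimethylated DNA and recruits the maintenance methyltransferase, read 4.23, 4.69, 4.83, 4.62 and 4.20 in control and 7.82, 5.61, 6.53, 7.53 and 7.04 at 2 d. The groups were apart, and the difference was 2.39 ± 0.22, of which 6.33% was present at 1 d. A dimmer Uhrf1 probe set (1415810_at) read 2.94 to 3.31 in control, among the lowest 10% of values. It read 3.53 to 3.93 at 1 d and 5.38 to 8.18 at 2 d, all above control. The size and the 1 d share given for Uhrf1 thus hold for 1415811_at alone. Over 1 h, where the arrays of 1415811_at read 4.72, 4.34, 4.35, 4.39 and 4.33, Uhrf1 rose by 2.48 ± 0.25. Chaf1b (1423877_at), a subunit of the histone chaperone CAF-1, rose by 0.88 ± 0.19, from 5.36, 4.81, 5.88, 5.08 and 5.27 at 1 h to 6.56, 5.49, 6.39, 6.15 and 6.18 at 2 d, with overlap.

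Other genes of this role that were higher than control at 2 d were 5 of 7, among them Hells, a chromatin remodeller needed for DNA methylation, by 3.59 ± 0.33, Dnmt1, the maintenance methyltransferase, by 2.01 ± 0.19, and the histone chaperone Asf1b by 1.28 ± 0.13. Dnmt1 was already called at 12 h (0.52 ± 0.19), and Hells and Asf1b were not called at 12 h or 1 d. Over 1 h 6 of 11 rose, with Atad2 at 2.58 ± 0.24, Dnmt1 at 2.02 ± 0.21 and the histone acetyltransferase Hat1 at 1.80 ± 0.27 in front.

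Over all 36 genes on the complete arrays, 32 were higher at 2 d than at 1 h (background 14.8%) and 2, Mcm10 and Tyms, were lower (background 13.3%); the median difference was 1.58. In 24 genes every 2 d array was above every 1 h array (background 12%). Without 2 d replicate 2 the median was 1.79 and 31 were called higher. At 12 h 4 were higher (background 8.29%), Cdt1, Mcm5, Mcm6 and Rpa2, and 2 were lower (background 10.3%), Mcm10 and Tk1. At 1 d 7 were higher (background 11.6%), adding Mcm2, Pcna and Dut to the same 4, and Mcm10 was lower (background 11.7%). The 12 h count of higher genes was 1 without 1 h replicate 1, 3 or 4 or 12 h replicate 1, and 2 without 12 h replicate 3 or 5. The lower count was 2 at 1 d without 1 d replicate 2, 3 or 5 or 1 h replicate 3, and 1 at 2 d without 1 h replicate 1, 2 or 4 or 2 d replicate 2, 4 or 5.

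From 1 d to 2 d 29 of the 36 rose (background 6.39%), and 30 were higher at 2 d than at 16 d (background 12.7%). The first count was 23 without 1 d replicate 1 and 31 without 2 d replicate 2. The second was 27 without 16 d replicate 4. Between 16 d and 1 h 0 of the 36 were called in limma's fit, with 4 at an unadjusted p under 0.05; over all genes 1.46% were called higher and 1.32% lower.

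**Figure D4:**
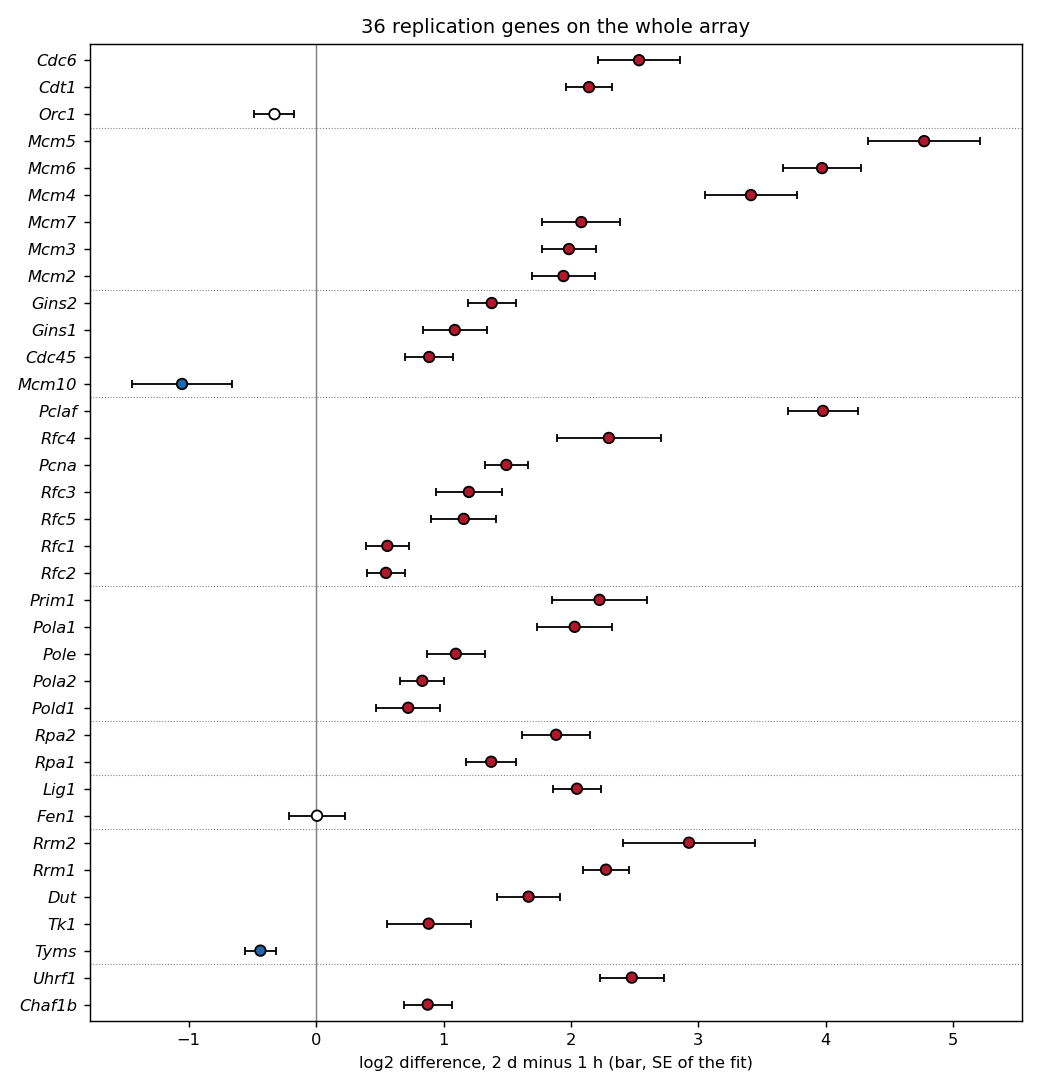
Log2 difference of 2 d minus 1 h (x axis, bars SE of the fit) for 36 genes on the complete arrays, grouped by role between dotted lines. Red points were called higher, blue lower and white not called; Mcm5, with a marked probe set, is farthest right at 4.77, and Mcm10, Tyms, Orc1 and Fen1 are the 4 genes not called higher, the last with a probe set that stayed level. With arrays centred on ribosomal protein genes the points of Rfc1, Rfc2 and Fen1 turn to -0.10, -0.12 and -0.66.

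Regulators of S phase entry rose in the same window. Of 15 G1 to S regulators 10 were higher than control at 2 d (background 19.9%). Ccnd1, cyclin D1, which starts the passage through G1, was higher by 1.32 ± 0.42 at 12 h and 2.62 ± 0.42 at 2 d. Ccne1 and Ccne2, the E cyclins of S phase entry, rose by 0.94 ± 0.19 and 2.34 ± 0.28 at 2 d, and Ccna2, the S phase cyclin A2, by 3.09 ± 0.31. E2f1 rose by 0.55 ± 0.16. On the complete arrays 14 of 25 were higher (background 14.8%) and 1 lower (Mycn, -0.28 ± 0.09, named after its value was seen) at 2 d than at 1 h, with Rbl1, the pocket protein p107, at 3.28 ± 0.31 in front of Ccnd1 at 3.11 ± 0.49 and Ccna2 at 2.95 ± 0.27; Myc was highest at 12 h, 3.48 ± 0.58 over 1 h, and 1.86 ± 0.58 at 2 d.

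Cell cycle inhibitors were high as well. Cdkn1a, the CDK and PCNA inhibitor p21, was 2.98 ± 0.40 above control at 12 h, 3.39 ± 0.40 at 1 d and 2.48 ± 0.40 at 2 d, and was not called at 4 d (0.74 ± 0.40), when 19 of the 24 replication genes still were. Btg2, an antiproliferative gene, was 3.31 ± 0.61 above control at 12 h and 2.39 ± 0.61 at 2 d. Of 6 inhibitors 4 were higher than control at 2 d, the remaining ones being Cdkn2d (1.12 ± 0.25) and Cdkn2c (0.62 ± 0.18), which were named after their values were seen.

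Most mitosis genes were higher at 2 d. Of 7 measured on all arrays 5 were higher and 1 lower than control at 2 d and 4 higher at 4 d; the lower one, Pttg1, which encodes securin, differed by -0.37 ± 0.10 and is named after its value was seen. At 12 h and 1 d 0 of the 7 were higher in limma's fit, and 0 at an unadjusted p under 0.05. The backgrounds were 11.5% and 16.2%, so with 7 genes a count of 0 is near the share of all genes. At those times 7 and 8 of the 24 replication genes were called higher. Whether the lists differ in timing was not tested. Pttg1 was lower at 12 h (-0.28 ± 0.10). Against 1 h, the mean over 26 mitosis genes on single arrays lay between -0.33 and -0.17 at 12 h and between -0.32 and -0.09 at 1 d, below the 1 h arrays (-0.07 to 0.10). At 12 h 1 of the 26 was called lower, Pttg1, and at 1 d 3 were, Pttg1, Ccnb2 and Tpx2, against backgrounds of 10.3% and 11.7%. Of 26 on the complete arrays 21 were higher at 2 d than at 1 h, with Birc5, survivin, at 3.67 ± 0.35, the proliferation marker Mki67 at 3.35 ± 0.26 and Ube2c, a ubiquitin-conjugating enzyme of mitotic exit, at 3.04 ± 0.36; Cdk1, the mitotic kinase, rose by 2.63 ± 0.29.

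**Figure D5:**
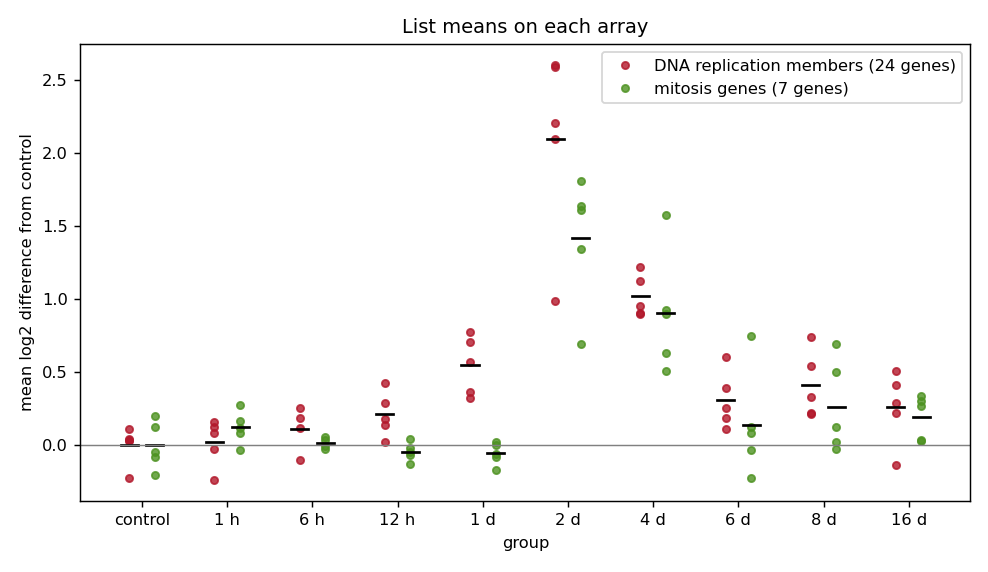
Mean log2 difference from control on each array (points) over 24 replication genes (red) and 7 mitosis genes (green), by group, with group means as bars. At 1 d the replication means lie between 0.33 and 0.78 and the mitosis means between -0.17 and 0.03; both are highest at 2 d.

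Markers of other liver cells moved in the same groups. Of 7 macrophage and monocyte markers 4 were higher than control at 12 h (background 11.5%), 6 at 1 d (background 16.2%) and 7 at 2 d. Their mean on single arrays ranged from -0.29 to 0.27 in control and from 1.73 to 2.77 at 2 d. Of 3 Kupffer cell markers all were higher from 12 h to 2 d, with means of -0.30 to 0.63 in control and 1.11 to 1.81 at 2 d. Over these 3 the group mean was already 0.59 above control at 1 h and 0.97 at 6 h. Of 9 on the complete arrays, 2 were higher at 12 h than at 1 h at an unadjusted p under 0.05 in limma's fit. By the same measure 3 were higher and 1 lower at 1 d, and 6 were higher at 2 d. The share of all genes at that unadjusted p was not counted, so these counts have no background beside them. Means of the 9 on single arrays ran from -0.24 to 0.37 at 1 h and from -0.02 to 0.38 at 12 h. They ran from 0.17 to 0.53 at 1 d and from 0.65 to 1.00 at 2 d. Of 6 stellate cell and myofibroblast markers 5 were higher at 2 d, with means of -0.21 to 0.32 in control and 2.24 to 2.85 at 2 d. At 2 d, where 19.9% of all genes were called higher, 3 of 5 endothelial markers were higher (Pecam1, Eng and Stab2), as were 1 of 5 neutrophil markers (S100a8, 2.82 ± 0.63) and 1 of 3 bile duct markers (Cldn4, 0.96 ± 0.32). The count of neutrophil markers is near the share of all genes. Of 7 lymphocyte markers 3 were lower (background 12.7%; Cd3e, Cd4 and Cd79a, from -0.47 to -0.34), as was 1 of 3 red cell precursor markers (Klf1, -0.90 ± 0.20). The 4 hepatocyte markers on all arrays had means of -0.31 to 0.16 in control and -0.40 to -0.18 at 2 d, where Cyp2e1 fell by 1.00. Their part in the rise of the replication genes was not tested.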

How the data were processed

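Total RNA of mouse livers was hybridised to Affymetrix Mouse Genome 430 2.0 arrays, per the labels' protocols. The authors deposited 1 log2 value per probe set and array, made with oligo 1.52.0 and RMA, per the submitters' processing notes. All 45101 probe sets had values on 25 arrays (1 h, 12 h, 1 d, 2 d and 16 d), and 8137 on all 49. No source used here states whether all arrays were normalized together. An array has no read depth; the number of arrays limits the precision, and differences of genes near background can be understated.

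From these values, the probe set with a single symbol and the highest mean stood for its gene. Groups came from the titles. In R 4.3.3, the lmFit, contrasts.fit and eBayes functions of limma 3.58.1 fitted 1 mean per group over all arrays of a table, and p-values were adjusted over all its genes. The script was tested on simulated data. The members and lists were chosen with earlier results of these data known. Within each role the members with the largest and the smallest 2 d difference, and any that ran against its role, were named with all values of the groups compared, and in each further list the 3 called genes with the largest difference and a preset group of cell cycle genes. Alternatives were other probe set rules, filters, weights, scalings, the replicate block and leaving out arrays. Replicate numbers were not used as pairs in the main fit. Promoter sequences came from a RefSeq table on GRCm38.p6; protein sequences were not used here.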

Additional observations from a re-analysis of the deposited data

Results flagged for a closer look

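Among the 61 sets of 5 array values examined for the replication genes given with all their values (control and 2 d, or 1 h and 2 d), 5 held an array whose distance to its nearest neighbour was over 0.71 of the whole range, a limit that chance passes in about 1 in 20 sets. At 2 d, replicate 2 was the low one for Mcm6 (8.02, next 9.50) and for Mcm7 (7.38, next 8.39). In control, replicate 4 was low for Pclaf (4.08, next 4.74) and replicate 2 was high for Pola1 (5.22, next 4.92). At 1 h, replicate 1 was high for Uhrf1 (4.72, next 4.39).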

How the results depend on the processing

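Counts are of genes called higher unless stated. At 2 d against control the count of 24 was 22 with dim genes left out, 21 with ribosomal centring and 20 of 21 measured with unmarked probe sets, and 24 in the remaining alternatives other than leaving out arrays. Alternatives that moved a count by over 1.5 times were as follows, against the counts given in the report. Unmarked probe sets gave 4 at 12 h and 4 at 1 d against control, 1 from 12 h to 1 d, and 1 lower at 12 h and 1 lower at 2 d against 1 h. The mean of all probe sets gave 1 from 12 h to 1 d and 1 lower at 2 d against 1 h. Leaving out dim genes gave 2 at 8 d, 2 lower at 12 h against control, 2 lower at 1 d and 1 lower at 2 d against 1 h. Array weights gave 1 at 1 h, 3 at 8 d, 3 at 16 d and 2 lower at 12 h against control, 13 higher and 3 lower at 1 d against 1 h, and 18 lower from 4 d to 6 d. Trend and robust estimation gave 2 lower at 1 d against 1 h. Quantile normalization gave 2 at 8 d, 2 at 16 d and 2 lower at 12 h against control, and 2 lower at 1 d against 1 h. Using only the groups compared gave 3 at 8 d against control, 0 from 12 h to 1 d, 14 at 1 d against 1 h and 16 lower from 4 d to 6 d. Leaving out the 3 arrays of narrow spread (control replicate 3, 1 h replicate 3 and 16 d replicate 4) gave 1 at 6 d and 2 lower at 12 h against control, 1 higher and 4 lower at 12 h and 2 lower at 1 d against 1 h. Ribosomal centring gave 5 at 1 d, 2 at 8 d, 2 at 16 d and 2 lower at 12 h against control and 1 from 12 h to 1 d. Against 1 h it gave 1 higher and 10 lower at 12 h, 3 higher and 13 lower at 1 d, and 21 higher and 4 lower at 2 d. The replicate block gave 2 at 8 d against control and 1 lower at 2 d against 1 h. Deviations of same-numbered arrays of different groups had a median r of 0.06 over 216 pairs, with 83 pairs over 0.1. For different-numbered arrays the median r was -0.01 over 864 pairs, with 210 over 0.1. The main fit did not take the numbers as pairs. The causes of these shifts were not tested.

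Leaving out 1 array at a time gave ranges of 0 to 1 at 6 h, 4 to 7 at 12 h, 7 to 10 at 1 d, 23 to 24 at 2 d, 16 to 19 at 4 d, 0 to 2 at 6 d, 0 to 2 at 8 d and 0 to 2 at 16 d, and 1 to 2 lower at 12 h, against control. From 12 h to 1 d the range was 1 to 3, and for lower genes it was 16 to 21 from 2 d to 4 d and 6 to 7 from 4 d to 6 d. Against 1 h it was 1 to 4 at 12 h, 5 to 9 at 1 d and 30 to 32 at 2 d, and for lower genes 2 to 3, 1 to 2 and 1 to 2. From 1 d to 2 d the range was 22 to 24 of the 24 genes and 23 to 31 of the 36. At 2 d against 16 d it was 27 to 30.

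Single differences changed sign in some settings. Dut was -0.042 at 1 d with the mean of its probe sets, and with its unmarked one -0.64 at 1 d, -0.35 at 2 d and -0.038 at 4 d against control and -0.23 at 2 d against 1 h. With ribosomal centring Rfc2 was -0.38 at 1 d against control, and at 2 d against 1 h Fen1 was -0.66, Rfc1 -0.10 and Rfc2 -0.12. Genes near background, such as Cdc6, Orc1 and Tyms, have differences that the signal over background limits. Protein sequences were not used here.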
